A study of Mus musculus with 8 samples.

Results

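The 9 genes described here mark lipid-associated macrophages and were followed by symbol through single-cell RNA sequencing of mouse livers. They are Trem2, Tyrobp, Gpnmb, Cd9, Cd63, Fabp5, Lpl, Lgals3 and Plin2, that is 9 of the 55450 genes in the count matrix. They were chosen with earlier results of these data known. All 9 had UMIs (unique molecular identifiers, each counting 1 captured RNA molecule), and all 9 passed the filter on low counts in both cell sets compared between the 3 groups. The mice were C57BL/6 of wild-type genotype. The 2 control mice had a normal diet and plain drinking water. The 3 HFD+F+CCl4 mice had a high-fat diet, and the 3 WD+F+CCl4 mice a Western diet, each with sugar solution (fructose and glucose) to drink and weekly intraperitoneal carbon tetrachloride (CCl4), a liver toxin. Diet, sugar and CCl4 were given together, so their effects cannot be told apart, and both models are called NASH (nonalcoholic steatohepatitis) below. Each mouse gave 1 droplet library of dissociated liver cells, from which red and dead cells had been removed.

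Trem2 is a lipid-sensing receptor of macrophages that signals through the adaptor Tyrobp (DAP12), which recruits the kinase Syk. Macrophages that have taken up lipid in fatty tissue or around dying hepatocytes are known for high Trem2 together with genes for lipid uptake, storage and lysosomal breakdown, and are called lipid-associated or scar-associated macrophages. Gpnmb is a lysosomal membrane glycoprotein under the control of MITF and TFE factors, Cd9 and Cd63 are tetraspanins of the cell surface and of late endosomes, Fabp5 carries fatty acids in the cytosol, Lpl (lipoprotein lipase) frees fatty acids from lipoproteins, Plin2 coats lipid droplets, and Lgals3 is a galectin that binds glycoproteins and damaged lysosomes.

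The genes lie on 8 chromosomes of the GRCm38 build: Trem2 at chr17:48346401-48354147, Tyrobp at chr7:30413760-30417585, Gpnmb at chr6:49036546-49070929, Cd63 at chr10:128900989-128912822, Fabp5 at chr3:10012548-10016607, Lpl at chr8:68880491-68907448 and Lgals3 at chr14:47367751-47386160 on the plus strand, and Cd9 at chr6:125460266-125494791 and Plin2 at chr4:86648386-86670060 on the minus strand. Promoter windows of 300 bases, from 250 before to 50 after the start, were found in RefSeq (GRCm38.p6) for 6 of the 9 genes, and not for Tyrobp, Fabp5 and Lpl. The windows of Trem2, Gpnmb and Plin2 are shown because they hold letters of factors known in macrophages or lysosomal control. The capitals mark the matches described after the sequences.
Trem2, chr17:48346151-48346450, plus strand: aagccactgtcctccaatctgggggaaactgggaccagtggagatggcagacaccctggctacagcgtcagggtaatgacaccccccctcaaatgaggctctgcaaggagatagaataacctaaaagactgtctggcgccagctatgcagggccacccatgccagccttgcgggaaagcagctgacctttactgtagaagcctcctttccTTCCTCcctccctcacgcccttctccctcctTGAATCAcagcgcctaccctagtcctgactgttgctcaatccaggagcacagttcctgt
Gpnmb, chr6:49036268-49036567, plus strand: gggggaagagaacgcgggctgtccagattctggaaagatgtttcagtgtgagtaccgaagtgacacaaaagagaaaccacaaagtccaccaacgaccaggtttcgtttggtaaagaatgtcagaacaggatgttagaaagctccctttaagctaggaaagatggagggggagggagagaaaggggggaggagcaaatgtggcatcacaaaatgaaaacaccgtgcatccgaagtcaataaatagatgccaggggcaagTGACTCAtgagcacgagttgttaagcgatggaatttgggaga
Plin2, chr4:86670010-86670309, minus strand: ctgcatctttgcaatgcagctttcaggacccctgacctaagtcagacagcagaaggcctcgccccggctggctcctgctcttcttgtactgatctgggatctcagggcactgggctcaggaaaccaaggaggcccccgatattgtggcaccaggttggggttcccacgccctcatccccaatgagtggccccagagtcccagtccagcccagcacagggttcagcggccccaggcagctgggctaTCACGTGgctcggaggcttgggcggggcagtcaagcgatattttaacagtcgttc
On both strands, TGANTCA, the letters bound by AP-1, was present in the windows of Trem2 (TGAATCA, 9 bases before the start) and Gpnmb (TGACTCA, 8 bases after it), and in 7.81% of all 32817 windows. GAGGAA, the core bound by PU.1, was present in the window of Trem2 (as TTCCTC on the printed strand) and at 2 places in that of Cd63, and in 28.3% of all windows. The Plin2 window held TCACGTG, a form of the letters bound by MITF and TFE factors (TCATGTG or TCACGTG, 7.4% of all windows), which contains the E-box CACGTG (7.15%). None of the 6 windows held the direct repeat bound by PPAR factors (AGGTCA, any 1 base, then AGGTCA again) (0.0396% of all windows), and those of Cd9 and Lgals3 held none of these letters.

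The cells kept were the 80474 of 88581 barcodes with over 500 genes and less than 25% of UMIs from mitochondria, 4168 to 11999 per mouse. The deepest library (WD+F+CCl4 replicate 3) had 64855024 UMIs and the shallowest (control replicate 2) 6135827, and the latter stood apart with a median of 992.5 UMIs per kept cell against 2397 in control replicate 1 and 3159 to 4278 in the NASH mice. In each library, 1.69% to 2.40% of the kept cells shared a barcode with another library. Clustering, with the 9 genes left out of the variable genes, gave 29 clusters, of which 21 took a name from marker genes and 8, with 11508 cells, did not. The largest, with 14191 cells, detected 8 of 8 macrophage markers (among them C1qa, C1qb, C1qc, Adgre1, Ms4a7, Fcgr1 and Mertk) and is called macrophage-like. It held 53 and 19 cells of the control mice (0.491% and 0.456% of their kept cells) and 1390 to 3116 of each NASH mouse (11.6% to 28.2%). Macrophage-, Kupffer cell-, monocyte-, patrolling monocyte- and conventional dendritic cell-like cells are together called mononuclear phagocytes. They made 6.29% and 10.6% of control cells against 50.5% to 68.6% of NASH cells. Clusters without a name took in 5558 of 10788 and 3021 of 4168 control cells, but only 347 to 740 per NASH mouse. Contrasts by class thus rest on the minority of control cells that took a name. How many phagocytes lay among the unnamed cells was not tested.

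Summed over all kept cells, every one of the 9 genes was higher in both NASH models than in the controls. Levels are given in CPM, the counts of a gene scaled to the same total in every sum. Trem2 stood at 3.71 and 3.77 CPM in the control mice, at 386, 378 and 109.7 CPM in HFD+F+CCl4 replicates 1 to 3 and at 259, 196 and 329 CPM in WD+F+CCl4 replicates 1 to 3. Gpnmb stood at 9.04 and 7.54 CPM in the controls, 1012, 628 and 161 CPM in HFD+F+CCl4 and 492, 173 and 509 CPM in WD+F+CCl4 mice. Every NASH mouse lay far above both controls for these 2 genes, and HFD+F+CCl4 replicate 3 was the lowest NASH mouse for both. Tyrobp, the adaptor, was already high in control liver, at 868 and 995 CPM against 2081 to 3123 CPM in the NASH mice. Neither group of NASH mice overlapped the controls for any of the 9 genes. The share of all genes without overlap was not counted, here or in the comparisons below, so this is a description only.

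By edgeR's quasi-likelihood test with Benjamini-Hochberg adjustment over all 19787 genes tested, 9 of 9 genes rose in HFD+F+CCl4 against control, where 9.63% of all genes rose. The log2 fold change in HFD+F+CCl4 was 6.34 ± 0.63 (SE) for Trem2 (edgeR adjusted p = 0.00141), 6.20 ± 0.92 for Gpnmb (edgeR adjusted p = 0.00509) and 4.07 ± 0.37 for Cd63 (edgeR adjusted p = 0.00125). The lipid genes followed with 3.74 for Lpl, 3.31 for Fabp5 and 3.02 for Plin2, and the smallest changes were those of Cd9 (2.13) and Tyrobp (1.45). In WD+F+CCl4 against control 9 of 9 genes again rose, where 11% of all genes rose, with log2 fold changes from 1.49 for Cd9 and 1.72 for Tyrobp to 5.70 for Gpnmb and 6.28 for Trem2. The median over the 9 genes was 3.31 in HFD+F+CCl4 and 3.33 in WD+F+CCl4, beside -0.00949 and -0.0561 over all genes. Both comparisons share the control mice. In such sums, more cells of a type and more RNA per cell cannot be told apart, and the 8 macrophage markers rose as well, 8 of 8 by the same test. Most Trem2 UMIs of the kept NASH cells were in phagocytes: 79.95% to 87.5% of each NASH mouse's 5920 to 21018 Trem2 UMIs fell in mononuclear phagocytes and 40.4% to 72.1% in macrophage-like cells, while the control mice had 133 and 20 Trem2 UMIs in all. Phagocytes also held most UMIs of all genes in each NASH mouse. The largest share was 37430594 of 53977712 UMIs in HFD+F+CCl4 replicate 3, and the smallest 37587256 of 62381573 in WD+F+CCl4 replicate 1.

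**Figure D1:**
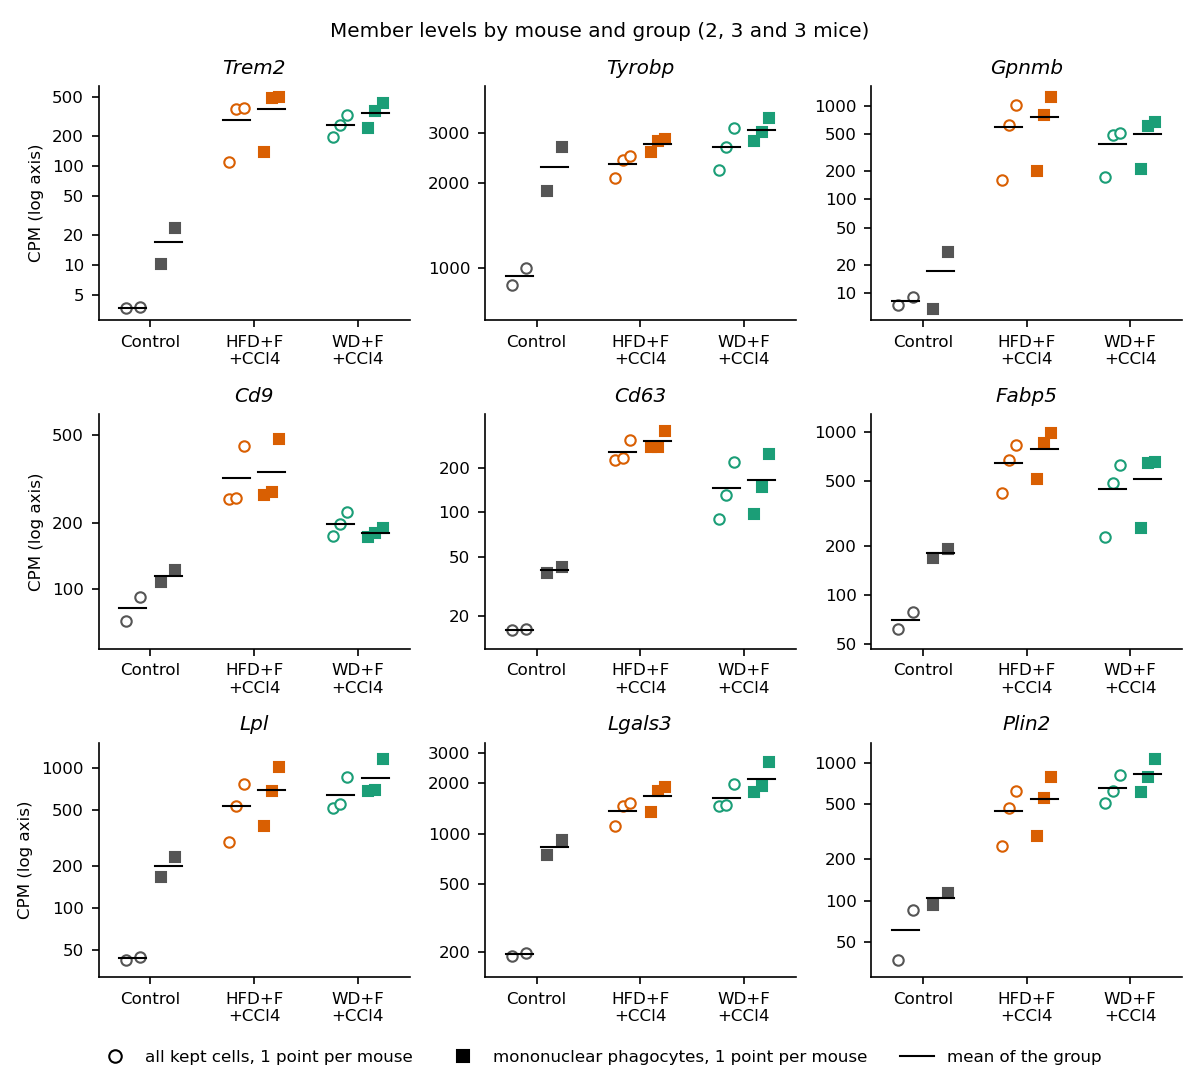
Level of each of the 9 genes in each of the 8 mice, in CPM on a log axis, as open circles for all kept cells and filled squares for mononuclear phagocytes, with a black line at the group mean. The 6 NASH mice lie above both control mice in all kept cells for every gene (Trem2 109.7 to 386 CPM against 3.71 and 3.77 CPM), while in phagocytes Tyrobp overlaps.

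Within the mononuclear phagocytes, which removes the change in their share of the liver but not the change in their make-up, 8 of the 9 genes rose in NASH and Tyrobp did not pass the test. The controls had 7 and 0 Kupffer cell-like, 53 and 19 macrophage-like and 32 and 8 patrolling monocyte-like cells. Each NASH mouse had 9 to 706, 1390 to 3116 and 1161 to 3083, in the same order. Most control phagocytes were monocyte-like (375 and 176 cells) or conventional dendritic cell-like (212 and 238 cells). A change in make-up and one in level cannot be told apart in these sums. Trem2 stood at 24.0 and 10.2 CPM in the control phagocytes, at 489, 492 and 138 CPM in HFD+F+CCl4 and at 355, 242 and 427 CPM in WD+F+CCl4 mice. Gpnmb stood at 27.8 and 6.81 CPM in the controls, 1253, 805 and 201 CPM in HFD+F+CCl4 and 678, 210 and 615 CPM in WD+F+CCl4 mice. All 6 NASH mice lay well above the controls for both genes, and HFD+F+CCl4 replicate 3 and WD+F+CCl4 replicate 2 were the low ones for Gpnmb. Tyrobp stood at 2672 and 1864 CPM in the controls, and at 2572 to 3381 CPM in the NASH mice with a median of 2826 CPM. The NASH mouse HFD+F+CCl4 replicate 1 lay below control replicate 1, so the groups overlapped for the adaptor but not for its receptor.

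With both NASH models in 1 group (a comparison added after the data were seen), the log2 fold change in phagocytes was 4.17 ± 0.62 for Trem2 (edgeR adjusted p = 0.00418), and 6.65% of the 16659 genes tested rose. It was 4.85 ± 0.92 for Gpnmb (edgeR adjusted p = 0.0106) and 0.39 ± 0.25 for Tyrobp (edgeR adjusted p = 0.332). Of the tetraspanins, Cd63 rose by 2.46 ± 0.37 (edgeR adjusted p = 0.00418) and Cd9 by 1.15 ± 0.29 (edgeR adjusted p = 0.0347). The median over the 9 genes was 1.98, beside 0.0785 over all genes. The macrophage markers rose in the phagocytes as well, 8 of 8 with a median of 4.29, and their part in the members' changes was not tested.

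The lipid genes rose in the phagocytes too. Plin2 stood at 93.2 and 114 CPM in the controls, 557, 781 and 292 CPM in HFD+F+CCl4 and 1069, 609 and 785 CPM in WD+F+CCl4 mice, a log2 fold change of 2.75 ± 0.41 (edgeR adjusted p = 0.00418). Fabp5 stood at 168 and 193 CPM in the controls against 258 to 991 CPM (1.88 ± 0.40, edgeR adjusted p = 0.0173), and Lpl at 230 and 167 CPM against 386 to 1174 CPM (1.98 ± 0.41, edgeR adjusted p = 0.0163). Lgals3 stood at 916 and 751 CPM in the controls and 1339 to 2654 CPM in the NASH mice (1.22 ± 0.26, edgeR adjusted p = 0.018). Each NASH mouse lay above both controls for all 4 of these genes, the narrowest gap being that of Fabp5 in WD+F+CCl4 replicate 2.

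Taken separately, HFD+F+CCl4 phagocytes had 7 of the 9 genes higher than control (4% of all genes rose), without Tyrobp (0.29 ± 0.27, edgeR adjusted p = 0.557) and Lgals3 (1.02 ± 0.28, edgeR adjusted p = 0.0595). WD+F+CCl4 phagocytes also had 7 (6.24% of all genes rose), without Tyrobp (0.50 ± 0.27, edgeR adjusted p = 0.27) and Cd9 (0.71 ± 0.31, edgeR adjusted p = 0.174). These calls rested on both control mice. Without control replicate 1 the count was 0 in HFD+F+CCl4, 3 in WD+F+CCl4 and 1 with both models together (Trem2, 5.31, edgeR adjusted p = 0.0406), and without control replicate 2 it was 0, 2 and 3, with every log2 fold change but that of Tyrobp in HFD+F+CCl4 (-0.01 without control replicate 2) still above 0.

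Between the 2 models, none of the 9 genes passed the test, in all cells or in phagocytes (0 by edgeR and 0 by DESeq2), and none of the other genes did by edgeR (0% called). At an unadjusted p under 0.05, edgeR gave 767 of 19787 genes in all cells and 1084 of 16659 in phagocytes, with Cd9 and Cd63 among them in both sets. Chance alone passes some genes at this threshold, so no difference between the models is read from these 2 genes. In phagocytes Cd9 was at 339.6 ± 119.7 CPM (SD, n = 3) in HFD+F+CCl4 and 180.3 ± 8.74 CPM (SD, n = 3) in WD+F+CCl4, without overlap between the models. Cd63 was at 300.5 ± 43.8 CPM (SD, n = 3) in HFD+F+CCl4 and 165 ± 76.5 CPM (SD, n = 3) in WD+F+CCl4, also without overlap. Trem2, at 373 ± 203 CPM (SD, n = 3) and 341 ± 93.3 CPM (SD, n = 3), overlapped widely.

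The 9 genes were spread over the liver's cell classes in different ways, given here as the lowest, median and highest level over the NASH mice with at least 20 cells of a class. Trem2 was highest in macrophage-like cells (282, 659 and 758 CPM) and Kupffer cell-like cells (461, 551 and 682 CPM), which overlapped. Monocyte-like cells came next (132, 189 and 311 CPM), then erythroid cell-like cells (77.1, 151 and 338 CPM in 4 mice), and the highest mouse of each reached the lowest macrophage-like value but not the Kupffer cell-like range. Gpnmb was at 460, 1151 and 2011 CPM in macrophage-like and at 323, 928 and 1551 CPM in Kupffer cell-like cells. Macrophage-like cells had the most Trem2 of any class in 4 of 6 NASH mice and the most Gpnmb in 5 of 6, Kupffer cell-like cells having the most in the remaining ones.

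Lpl, the lipase, had a like distribution with Kupffer cell-like cells in front (1116, 1824 and 2202 CPM), then macrophage-like cells (751, 1280 and 1537 CPM), whose range overlapped it and stayed above that of monocyte-like cells (254, 450 and 601 CPM). Plin2, the droplet coat, was at 406, 1053 and 2105 CPM in macrophage-like, 499, 611 and 797 CPM in Kupffer cell-like and 463, 553 and 648 CPM in hepatocyte-like cells, with overlap throughout. Fabp5 was at 457, 1219 and 1638 CPM in macrophage-like, 112, 554 and 666 CPM in endothelial cell-like and 167, 540 and 1023 CPM in Kupffer cell-like cells. Lgals3 was at 1722, 2397 and 4305 CPM in macrophage-like and 1702, 1775 and 2340 CPM in monocyte-like cells. Macrophage-like cells thus had the highest median for 3 of these 4 genes, and neighbouring ranges overlapped for Plin2, Fabp5 and Lgals3.

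Tyrobp, Cd9 and Cd63 were not led by macrophages alone. Tyrobp was highest in plasmacytoid dendritic cell-like (3615, 4300 and 4632 CPM) and neutrophil-like cells (3893, 4196 and 4857 CPM). Monocyte-like cells (3316, 3627 and 3878 CPM) overlapped with the former and lay below the latter, and macrophage-like cells lay lower, at a median of 2851 CPM. Cd9 was highest in patrolling monocyte-like (568, 791 and 1112 CPM) and neutrophil-like cells (433, 635 and 1113 CPM), then in cholangiocyte-like (346, 452 and 522 CPM) and endothelial cell-like cells (252, 347 and 561 CPM). In the same NASH mouse, patrolling monocyte-like cells had 285% to 595% of the Cd9 level of macrophage-like cells (118, 175 and 390 CPM). Cd63 was at 223, 407 and 618 CPM in macrophage-like, 245, 377 and 498 CPM in cholangiocyte-like and 237, 369 and 937 CPM in Kupffer cell-like cells, which all overlapped. Hepatic stellate cell or fibroblast-like cells had the highest median of Cd63, with 578.5 and 579.97 CPM in the 2 NASH mice that had 20 or more of them.

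**Figure D2:**
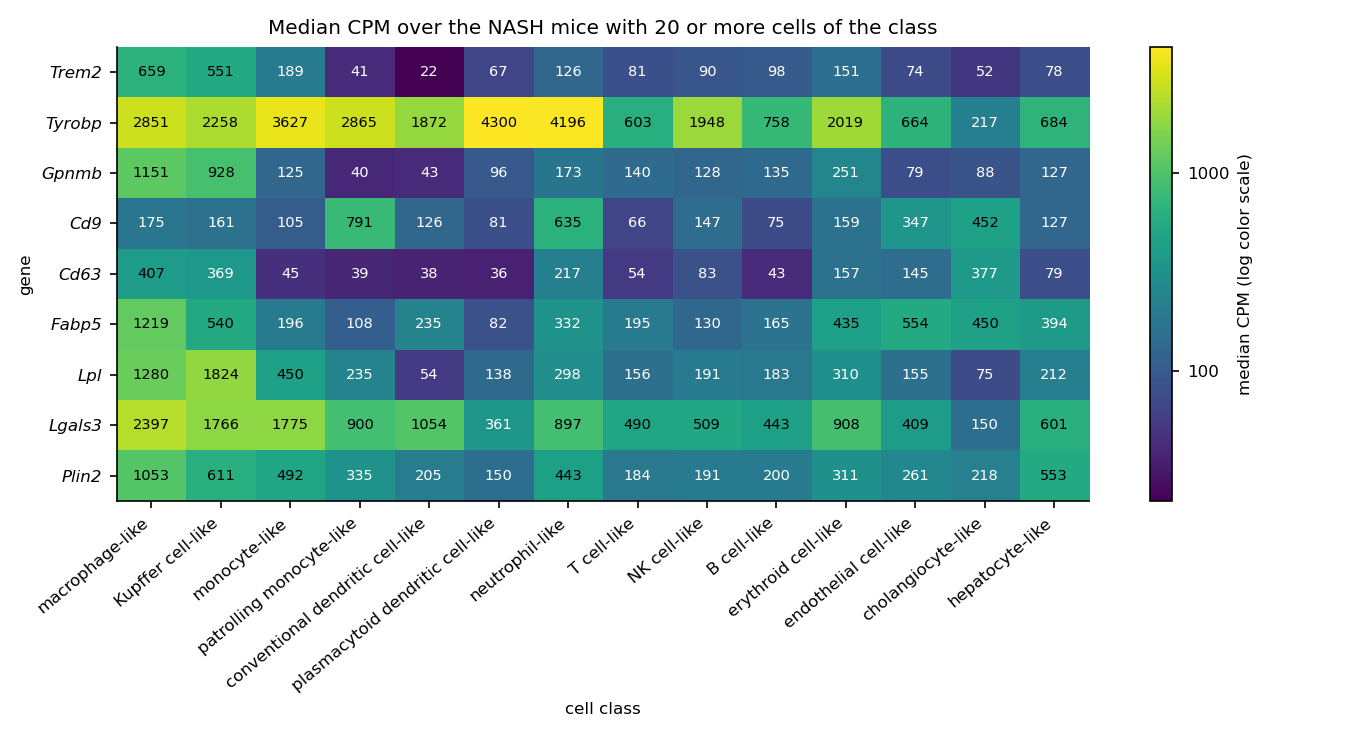
Median level in CPM over the NASH mice with at least 20 cells of a class, with a row for each of the 9 genes, a column for each of the 14 cell classes with at least 4 such mice and the value printed in each field. Trem2 (659 CPM) and Gpnmb (1151 CPM) peak in macrophage-like cells, Lpl in Kupffer cell-like cells (1824 CPM), Cd9 in patrolling monocyte-like cells (791 CPM) and Tyrobp in plasmacytoid dendritic cell-like cells (4300 CPM).

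Macrophage-like cells of the NASH mice differed from the few of the control mice in level as well as in number. In control replicate 1, the one control with 20 or more such cells, Trem2 stood at 63.9 CPM, Gpnmb at 281 CPM and Plin2 at 115 CPM, against 282 to 758, 460 to 2011 and 406 to 2105 CPM in the NASH mice. Lpl stood at 976 CPM in that control, inside the NASH range, and Fabp5 at 512 CPM, above the lowest NASH mouse (457 CPM). With the minimum lowered to 10 cells, a choice made after the data were seen so that both controls entered, 3 of the 9 genes rose, where 1.03% of 13769 genes rose. These were Trem2 (3.46 ± 0.55, edgeR adjusted p = 0.0165), Plin2 (3.24 ± 0.56, edgeR adjusted p = 0.0233) and Cd63 (2.04 ± 0.40, edgeR adjusted p = 0.0355). The log2 fold change was 2.62 ± 0.76 for Gpnmb (edgeR adjusted p = 0.114), 0.70 for Lpl (edgeR adjusted p = 0.296) and 0.44 for Tyrobp (edgeR adjusted p = 0.393). The median over all genes was 0.489 in this fit, and its scaling moved that median by up to 0.256. Without control replicate 1, or without control replicate 2, the count was 0 of 9. The summed macrophage markers themselves stood at 1296 CPM in these cells of control replicate 1 against 7546 to 11610 CPM in the NASH mice, and hepatocyte markers at 797 CPM against 25.5 to 407 CPM. Their part in the members' differences was not tested.

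Monocyte-like cells, marked by Ly6c2, Ccr2 and Chil3, were compared in the same way, with more control cells (375 and 176). Their control cells lay mostly in a cluster led by F13a1 and Fn1 (338 and 137 cells). Their NASH cells lay in a cluster led by Vcan and Chil3 (251 to 2927 cells, against 37 and 39 control cells). The contrast was thus largely between 1 cluster and another, and a change in make-up and one in level cannot be told apart in it. Trem2 stood at 37.5 and 15.3 CPM in control monocyte-like cells and at 132, 189 and 311 CPM (lowest, median and highest) in those of the 6 NASH mice. Plin2 stood at 96.7 and 117 CPM in the controls and at 256, 492 and 815 CPM in the NASH mice. Gpnmb stood at 16.3 and 0 CPM in the controls and at 41.2, 125 and 382 CPM in the NASH mice. For these 3 genes no NASH mouse reached down to a control. Tyrobp stood at 3884 and 3207 CPM against 3316 to 3878 CPM, all within the controls.

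Of the 9 genes, 7 rose in monocyte-like cells, where 4.48% of 12085 genes rose. The log2 fold change was 2.64 ± 0.40 for Trem2 (edgeR adjusted p = 0.00402), 2.22 ± 0.32 for Plin2 (edgeR adjusted p = 0.00286) and 1.94 ± 0.34 for Cd9 (edgeR adjusted p = 0.00712). It was 2.96 ± 0.70 for Cd63 (edgeR adjusted p = 0.026), 1.81 ± 0.40 for Fabp5 (edgeR adjusted p = 0.0203), 3.50 ± 0.99 for Gpnmb (edgeR adjusted p = 0.0498) and 0.80 ± 0.21 for Lgals3 (edgeR adjusted p = 0.0399). Lpl (0.62 ± 0.31, edgeR adjusted p = 0.242) and Tyrobp (0.08 ± 0.20, edgeR adjusted p = 0.87) did not pass the test. Macrophage markers moved too, 5 of 8 of them higher, from a sum of 398 CPM in each control to 829 to 2315 CPM in the NASH mice. Beside their level in macrophage-like cells of the same NASH mouse, that sum was 10.4% to 30.7% (median 17.9%), Gpnmb was 7.28% to 22.4% (median 13.3%) and Trem2 was 25.4% to 47.7% (median 37.4%), so Trem2 lay above the markers' share in each NASH mouse and Gpnmb did not exceed it at the median. Without control replicate 1 the count in monocyte-like cells was 0 of 9, with Trem2 at 4.04 (edgeR adjusted p = 0.0618), and without control replicate 2 it was 3.

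Clusters named type 1, type 2 or mature dendritic cells were counted together as conventional dendritic cell-like cells. A change in their mix was not tested, here or in the comparison with monocyte-like cells below. Conventional dendritic cell-like cells showed a set that differed only in part, since Trem2, Lgals3 and Plin2 rose in monocyte-like cells as well. In the dendritic class 4 of the 9 genes rose, where 4.27% of 11878 genes rose. These were Tyrobp (0.81 ± 0.19, edgeR adjusted p = 0.0248), Lgals3 (1.00 ± 0.19, edgeR adjusted p = 0.00935), Plin2 (1.13 ± 0.18, edgeR adjusted p = 0.0037) and Trem2 (edgeR adjusted p = 0.0187). Trem2 was near the floor there, with 3 UMIs in all in the controls, at 1.37 and 2.83 CPM, against 13.9 to 54.8 CPM in the NASH mice, a pooled ratio of 15.6 (exact 95% interval 5.31 to 75.7, counting error only). Tyrobp stood at 1255 and 1046 CPM in the controls against 1758 to 2386 CPM, without overlap. Cd9 stood at 224 and 156 CPM in the controls against 109 to 190 CPM (-0.47 ± 0.24, edgeR adjusted p = 0.264), and Cd63 at 75.2 and 45.2 CPM against 15.4 to 93.1 CPM (-0.66 ± 0.38, edgeR adjusted p = 0.319). For each of these tetraspanins, 4 of the 6 NASH mice lay below both controls. Macrophage markers, 6 of 8 higher, summed to 79.2 and 96.4 CPM in the controls and 332 to 1027 CPM in the NASH mice, which was 4.39% to 8.99% of the sum in macrophage-like cells, and Trem2 was 2.79% to 7.39% of its level there. The medians were 5.23% for the sum and 4.15% for Trem2, so that Trem2 in these cells did not exceed the markers' share. Without control replicate 1 the count was 0, and without control replicate 2 it was 1.

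The effect of NASH differed between these 2 classes for 4 of the 9 genes, by a class-by-group term in edgeR with the mouse as a block, added after the data were seen, and 2.37% of 12859 genes differed. In monocyte-like cells that effect largely sets 1 cluster against another, so make-up and level cannot be told apart in the difference. The effect in conventional dendritic cell-like cells was lower than in monocyte-like cells for Cd9 (difference of log2 fold changes -2.52 ± 0.27, edgeR adjusted p = 3.82e-05), Cd63 (-3.78 ± 0.65, edgeR adjusted p = 0.00308) and Plin2 (-1.03 ± 0.24, edgeR adjusted p = 0.0234), and higher for Tyrobp (0.74 ± 0.13, edgeR adjusted p = 0.00306). Monocyte-like cells of both controls together held only 11 Cd63 and 54 Cd9 UMIs, so these 2 differences rest on few counts. For Trem2 the difference was 1.29 (edgeR adjusted p = 0.648), and its sign rested on control replicate 1, without which it was -0.69. Without control replicate 1, 0 of the 9 differences passed, and without control replicate 2, 3 did.

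**Figure D3:**
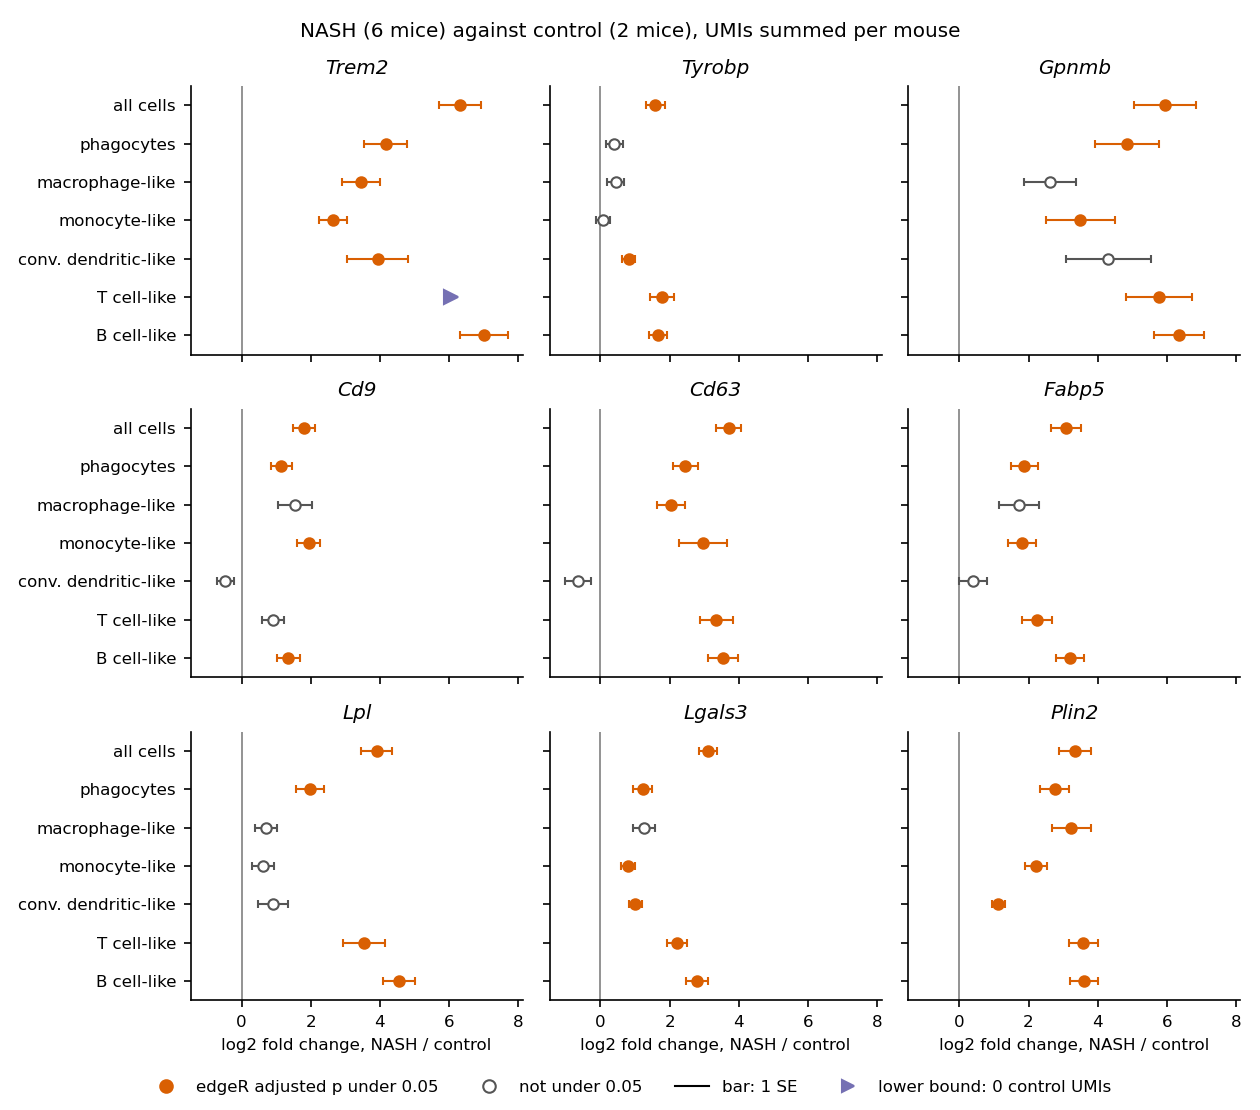
Log2 fold change (NASH over control, ± 1 SE) of each gene in 7 sets of cells, in orange where the edgeR adjusted p is under 0.05 and open where it is not, with a purple triangle for Trem2 in T cell-like cells, a lower bound because the controls had 0 UMIs. Trem2 passes the test in all 7 sets, and Tyrobp lies near 0 in phagocytes (0.39) and monocyte-like cells (0.08).

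Lymphocytes, which are not a known source of Trem2, carried the same genes in NASH liver. T cell-like cells of the controls had 0 Trem2 UMIs among 2437326, which allows up to 1.23 CPM (3 counts over the group), and those of the NASH mice had 32.9, 81.1 and 140 CPM (lowest, median and highest), at least 65.9-fold higher at the median. Gpnmb stood at 1.71 and 20.6 CPM in control T cell-like cells and at 65.5 to 358 CPM in the NASH mice. In T cell-like cells 8 of the 9 genes rose (5.72% of 12374 genes rose), all but Cd9, and in B cell-like cells 9 of 9 (6.14% of 9644 genes rose). The macrophage markers rose with them, 8 of 8 in T cell-like and 7 of 8 in B cell-like cells, from a sum of 10.3 and 30.3 CPM to 739 to 2309 CPM and from 34.3 and 36.8 CPM to 275 to 2856 CPM. Without control replicate 1 the count was 0 of 9 in T cell-like and 7 of 9 in B cell-like cells.

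Set against macrophage-like cells of the same NASH mouse, Trem2 in T cell-like cells was at 11.4% to 18.9% (median 13.01%) and Gpnmb at 7.33% to 25.1% (median 16.0%), where the summed macrophage markers were at 9.24% to 20.2% (median 12.9%). The median for Trem2 was 14.7% in B cell-like and 14.3% in NK cell-like cells, and that of the marker sum 14.9% and 16.1%. In all 3 lymphocyte classes the median for Trem2 thus lay close to that of the markers. The part of macrophage RNA in the lymphocytes' values was not tested, and no expression is read here from a level at or under the markers' share. Tyrobp was at 55.8% to 74.5% in NK cell-like cells, and Cd9 at 30.4% to 58.4% in T cell-like and 24.3% to 65.9% in B cell-like cells, above the markers' share. The other classes tested gave 6 of 9 genes higher in plasmacytoid dendritic cell-like (2.98% of all genes rose) and 6 in neutrophil-like cells (1.93% rose), 3 in endothelial cell-like cells (0.647% rose) and 0 in cholangiocyte-like (0.306% rose, 1175 genes at an unadjusted p under 0.05) and patrolling monocyte-like cells (0.0875% rose, 1236 genes). DESeq2 also gave 0 of the 9 genes in cholangiocyte-like cells and in patrolling monocyte-like cells. Macrophage markers were higher there for 7, 5, 5, 3 and 0 of 8, in the same order.

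**Figure D4:**
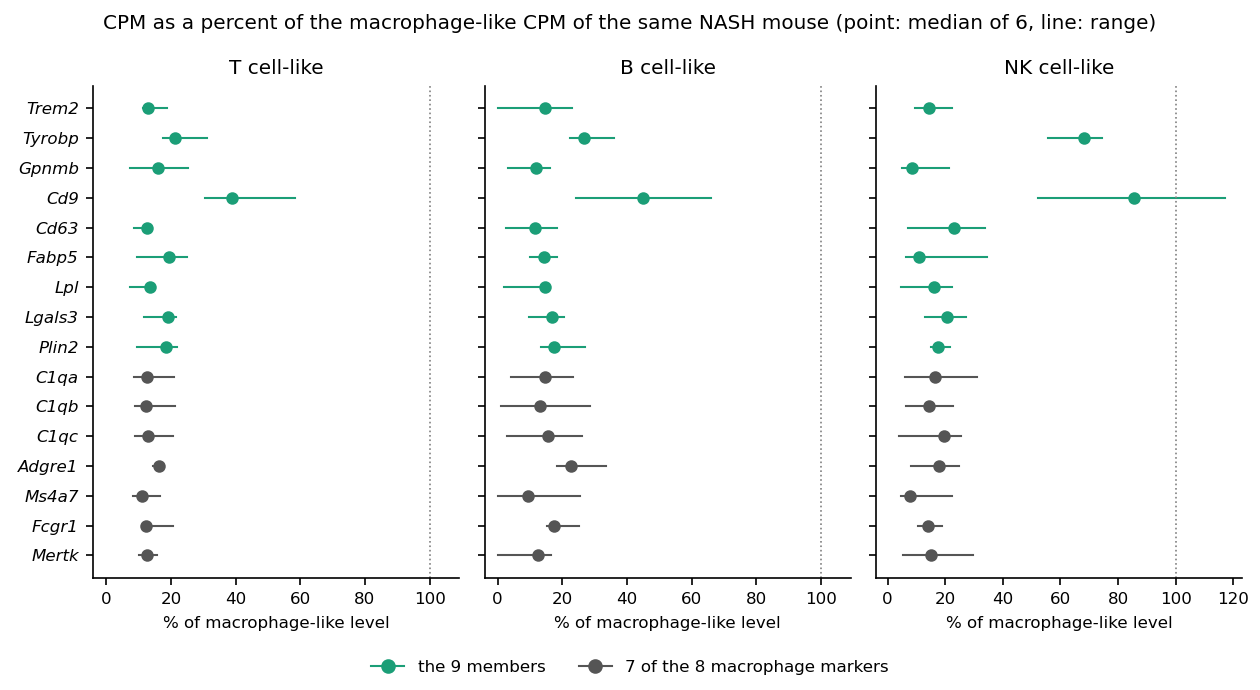
Level in T, B and NK cell-like cells as a percent of the level in macrophage-like cells of the same NASH mouse, for the 9 genes and 7 of the 8 macrophage markers, with the point at the median of the 6 NASH mice and the line over their range. Trem2 lies among the markers in each class (medians 13.01%, 14.7% and 14.3%), and Tyrobp in NK cell-like cells (68.3%) and Cd9 lie above them.

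The share of cells with a UMI was compared after each cell was thinned to 1000 UMIs, leaving out shallower cells. Among macrophage-like cells, 20.6%, 42.2% and 46.4% (lowest, median and highest NASH mouse) had a Trem2 UMI, of 1369 to 3006 cells used, against 5.77% of the 52 used in control replicate 1. For Plin2 the shares were 30.2%, 52.3% and 75.3% against 5.77%, and for Gpnmb 19.0%, 35.6% and 56.7% against 5.77%. In monocyte-like cells 11.9%, 17.2% and 24.0% had a Trem2 UMI against 2.45% and 2% in the controls, higher in 6 of 6 NASH mice (exact two-sided permutation test, p = 0.0714, the smallest that 2 against 6 mice allow). In T cell-like cells, a class not known for Trem2, it was 1.51%, 3.63% and 7.09% against 0 of 773 and 0 of 37 cells. Without thinning the medians over the NASH mice were 79.1%, 51.4% and 8.90% in these 3 classes, whose cells had median depths of 5120 to 6593, 4389 to 6504 and 1991 to 2882 UMIs per mouse. Macrophage- and monocyte-like cells lay above T cell-like cells in every NASH mouse.

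Several of the genes were detected in the same macrophage-like cell. The number that their levels alone would give was not calculated, so this is a description only. At 2000 UMIs per cell the median cell of the 6 NASH mice had UMIs of 4 to 6 of the 9 genes, and 14.2% to 43.6% of the cells had at least 7. The mouse with the highest share was WD+F+CCl4 replicate 1, and WD+F+CCl4 replicate 2 and HFD+F+CCl4 replicate 3 (15.9%) were the lowest.

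Macrophage-like cells with a Trem2 UMI were then compared with those without, within each NASH mouse and at 2000 UMIs per cell. There were 687 to 1733 cells with and 450 to 1304 without one in a mouse. Gpnmb had a median over mice of 1119 CPM in cells with and 489 CPM in cells without a Trem2 UMI, Fabp5 1162 and 582 CPM, and Lpl 1384 and 853 CPM. Plin2 had 1122 and 758 CPM, Lgals3 2326 and 1706 CPM, and Cd63 425 and 274 CPM. All 6 of these genes were higher in the Trem2-positive cells of 6 of 6 mice. Cd9 had 152 and 157 CPM, with 5 of 6 mice higher, and Tyrobp 2848 and 2898 CPM, with 4 of 6 mice higher.

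With the mouse as a block, 7 of the 8 genes other than Trem2 were higher in cells with a Trem2 UMI, where 6.48% of 9331 genes were higher. The log2 difference was 1.14 for Gpnmb (edgeR adjusted p = 4.47e-18), 0.87 for Fabp5, 0.72 for Cd63, 0.72 for Lpl, 0.53 for Plin2, 0.44 for Lgals3 and 0.23 for Cd9 (edgeR adjusted p = 0.01), and 0.01 for Tyrobp. Their median was 0.62, beside -0.00513 over all genes. The 10 genes of largest difference, at a mean above 5 log2 CPM, were Folr2 (1.34), Syngr1 (1.27), Gpnmb, Pf4 (1.11), Emp1 (1.06), Adam8 (1.02), Gas6 (1.02), Stab1 (0.91), Olfml3 (0.91) and Spp1 (0.91). The 5 lowest were Il4i1 (-1.43), a marker of mature dendritic cells, Ace (-1.25), a marker of patrolling monocytes, Ly6i (-1.25), Traf1 (-1.23) and Cbfa2t3 (-1.21). Each of these 15 genes kept its direction in 6 of 6 mice.

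**Figure D5:**
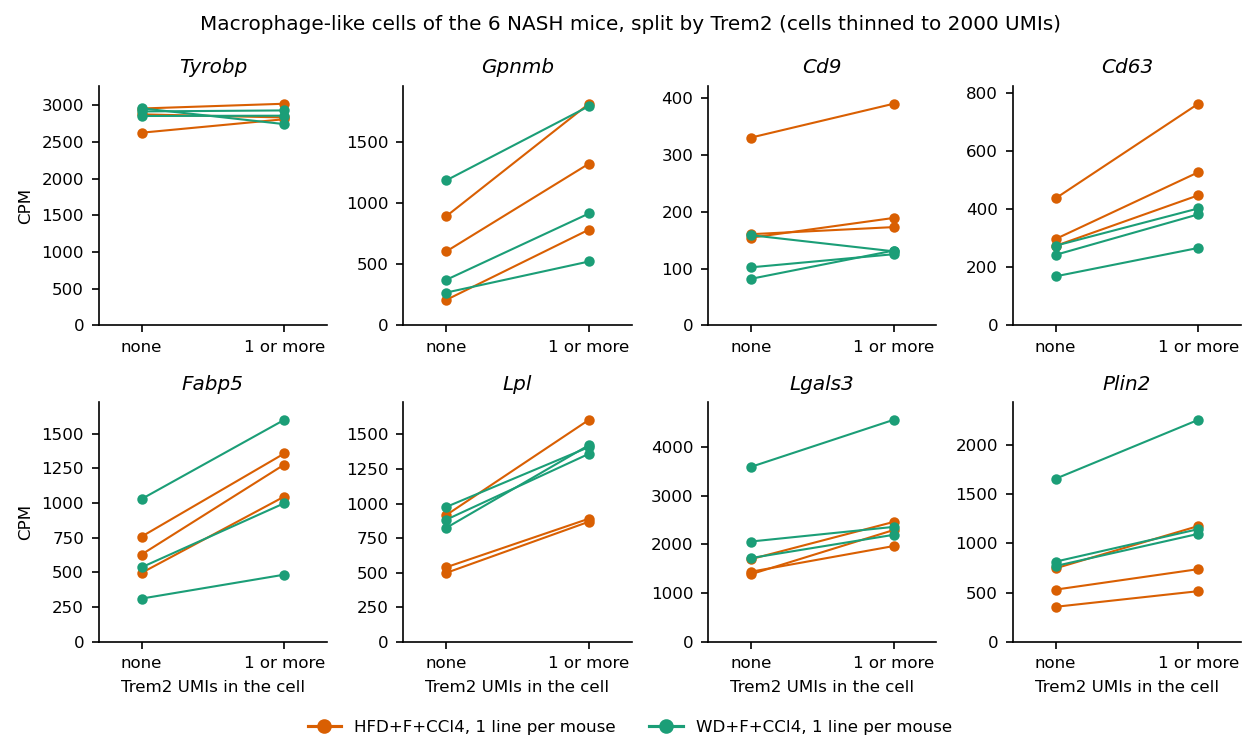
Level in CPM of the 8 other genes in macrophage-like cells with no Trem2 UMI and with at least 1, each cell thinned to 2000 UMIs, with 1 line for each of the 6 NASH mice. The lines of Gpnmb (medians 489 and 1119 CPM), Fabp5, Lpl, Cd63, Plin2 and Lgals3 rise in every mouse, and those of Tyrobp (2898 and 2848 CPM) are nearly level.

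Genes around the 9 members were counted in the mononuclear phagocytes, both NASH models against control, and the members of largest absolute log2 fold change in each list are named. The lists were chosen with earlier results of these data known, so their counts are a description and no independent support. Over all lists 36 of 88 genes rose and 1 fell, where 6.65% of all genes rose, and these calls too rested on both controls, with 13 genes higher without control replicate 1 (1.8% of all genes) and 10 without control replicate 2 (1.97%). Of 7 receptors that can pair with Tyrobp, 3 rose, Trem1 (3.23), Trem3 (1.87) and Treml4 (1.46), while Siglech, the receptor of plasmacytoid dendritic cells, was at -1.72 (edgeR adjusted p = 0.179). The list median was 0.64, beside 0.39 for Tyrobp. Of 10 genes that signal below or beside Tyrobp, 3 rose (Syk 0.78, Vav1 0.69 and Grb2 0.68) and 1 fell, Hcst (-0.71), which encodes the adaptor DAP10. Their median was 0.15.

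Of 8 lipid uptake receptors tested, 4 rose, with Slc27a1 (2.19), the lipoprotein receptor Lrp1 (1.496) and the scavenger receptor Msr1 (1.40) in front. Fabp4, the fatty acid binding protein of adipocytes and macrophages, rose from 22.0 and 22.2 CPM in the controls to 99.4 to 188 CPM (2.69, edgeR adjusted p = 0.00111). None of the 4 other members of the Fabp family counted passed, with Fabp3 at 0.289 and 0 CPM in the controls and 2.49 to 12.6 CPM in the NASH mice and Fabp1, the liver form, at -2.14 (edgeR adjusted p = 0.0751). Of 8 genes of lipid droplets and esterification tested, 1 rose, Hilpda (1.33), an inhibitor of lipolysis, and Soat1, which esterifies cholesterol, was at 0.61 (edgeR adjusted p = 0.07). Plin5 was at 0 and 1.70 CPM in the controls and at most 0.478 CPM in the NASH mice, and the list median was 0.31. The rise of Plin2 thus stood apart from the values of the other droplet genes named, without a test of that difference. Summed hepatocyte markers were higher in control cells, at 1210 to 1240 CPM against 18.2 to 415 CPM in NASH monocyte-like cells. In conventional dendritic cell-like cells they were at 733 to 930 CPM in control against 20.6 to 406 CPM in NASH mice. The part of hepatocyte RNA in the values of Fabp1 and Plin5 was not tested.

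Of 6 lipolysis genes, 3 rose, namely Nceh1 (2.15) and Lipa (1.60), which hydrolyse cholesteryl esters outside and inside lysosomes, and Pnpla2 (1.00), which starts triglyceride breakdown, while Mgll was at -2.40 (edgeR adjusted p = 0.0849). Of 6 partners of Lpl, 1 rose, its inhibitor Angptl4, from 0.289 and 0 CPM in the controls to 5.66 to 28.9 CPM, and its cofactor Apoc2 stood at 0.289 and 0 CPM against 0.561 to 2.06 CPM. Of 7 other tetraspanins, 2 rose (Cd151 0.94 and Cd53 0.64), and Tspan4 was at 2.51 (edgeR adjusted p = 0.129). Of 5 other genes listed with the galectins, 2 rose, Lgals8 (0.84) and Lgals3bp (1.83), which encodes a galectin-binding protein and not a galectin. Lgals4 was at -2.47 (edgeR adjusted p = 0.0637).

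Of 12 other genes of lipid-associated macrophages, 8 rose, with osteopontin (Spp1, 4.55) and Apoe (4.45) in front, and the list median was 3.4. Mmp12, the macrophage elastase, was at 5.51 (edgeR adjusted p = 0.0711), and Atp6v0d2, a subunit of the proton pump, stood at 0.579 and 0 CPM in the controls against 2.64 to 58.5 CPM. Of 14 regulators, 8 rose, among them the lipid-activated receptors Pparg (3.57, edgeR adjusted p = 0.000513) and Nr1h3 (3.34, edgeR adjusted p = 0.000432), and Bhlhe41 (0.289 and 0 CPM against 4.28 to 12.6 CPM). Mitf (1.54) and Tfeb (0.91), factors of the lysosomal program that Gpnmb belongs to, rose as well and are named here after their values were seen. The same lists in monocyte-like cells gave 3 of 7 receptors, 1 of 8 uptake receptors, 8 of 12 lipid-associated genes and 6 of 14 regulators higher. Over all lists that made 21 of 85 genes, where 4.48% of all genes rose, with 3 left without control replicate 1 and 9 without control replicate 2. Between macrophage-like cells with and without a Trem2 UMI, 9 of 12 lipid-associated genes were higher and 1 lower (6.48% of all genes were higher), and of the regulators 5 of 14 were higher and 3 lower.

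Across 101 sums, each over the cells of 1 class in 1 mouse, Ms4a7 (Pearson r = 0.924 of log2(CPM + 1)), C3ar1 (0.923), C1qb (0.920), C1qc (0.883), Adgre1 and C1qa (0.874 each), Hmox1 (0.869), Slc7a8 (0.866) and Fcgr1 (0.862) were among the 10 of 8788 genes most like Trem2. The points share libraries and free RNA, so r is a description. Among the members Gpnmb came at rank 11 (0.861), Lpl at rank 13 (0.821), Plin2 at rank 14 (0.820) and Lgals3 at rank 28 (0.779). Fabp5 (0.629, rank 150), Cd63 (0.596, rank 206), Tyrobp (0.433, rank 636) and Cd9 (0.10, rank 3488) were less like it.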

How the data were processed

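The 8 libraries came in 1 matrix of UMI counts, which the authors deposited raw, as whole numbers per gene and barcode (10x Genomics 3' v3 kit; bcl2fastq 2.20 and Cell Ranger per the submitters' notes, with 4.0.0 in the file header, on GRCm38). The sources used here do not say whether free RNA or doublets were removed. The 9 genes and the other gene lists were chosen with earlier results of these data known. The kept barcodes had more than 500 genes and under 25% mitochondrial UMIs, as in the study.

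Counts were clustered in scanpy 1.11.5 (Python 3.11.15) with the Leiden method (leidenalg 0.10.2, igraph 0.11.9) at a resolution of 0.42, on 20 neighbours in 30 principal components of 2000 variable genes, none of them a member. Naming a cluster needed 3 or more of a class's markers, each in a share of 0.1 or more of the cells, a mean z-score of at least 0.5 and a margin of 0.45 over the next class. The resolution and the margin were set after the data were seen. Doublets were kept. An alternative left out 6824 cells, by rank of a doublet score, at 0.8% per 1000 barcodes.

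UMI counts were summed per mouse and tested in edgeR 4.0.16 (quasi-likelihood, TMM, filterByExpr with a minimum of 10; R 4.3.3, limma 3.58.1), with the 8 mice in 1 fit of 3 groups and a threshold of 0.05 on Benjamini-Hochberg adjusted p. A class needed 20 cells per mouse in both controls and at least 4 NASH mice, and 10 cells for macrophage-like and 5 for patrolling monocyte-like cells. Each mouse is 1 library, so the spread between mice includes that between libraries. Alternatives were DESeq2 1.42.0, other scalings and filters, other cell filters and clusterings, a replicate block and each mouse left out in turn. On simulated counts with 200 changed genes the tests recovered 61.5% of them in all cells, 80.5% in phagocytes, 89.5% in monocyte-like and 36.5% in macrophage-like cells. Only genes with higher mean counts were changed, and the raised ones had an estimated median log2 fold change of 1.98 to 2.29 in these sets. Smaller changes were not simulated there, so these shares do not describe the power to find them.

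Replicate numbers of the groups did not pair the mice. The test of shares was an exact two-sided permutation test, which cannot go below p = 0.0714 with 2 against 6 mice. Intervals and floors cover counting error only. Genes are named by a fixed rule: the 9 members in each comparison, the 10 genes most like Trem2, the 10 highest and 5 lowest genes of the Trem2 split, and 2 to 4 genes of largest change in each list; some genes that this rule picks are not reported here. Near-identical copies, found with blastn 2.17.0+, held few UMIs beside the members in kept cells. Cd63-ps, 98.02% identical to Cd63, held 1835 against 66027 UMIs, and Gm6166, a copy of Fabp5, held 467 against 182603. Trim5, alike to Lpl over 204 bases (91.67% identical), held 9576 against 197828. Gm26728 overlaps Cd9 on the opposite strand and held 106 UMIs against 87594.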

Additional observations from a re-analysis of the deposited data

Results flagged for a closer look

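In 15 of 81 groups of NASH mice, 1 mouse stood apart from the others by Dixon's test at the 95% level, which chance does in about 1 in 20 groups. Many of these involve HFD+F+CCl4 replicate 3, whose Cd9 was the highest in all cells (445.5 CPM), mononuclear phagocytes (477.8 CPM), macrophage-like cells (389.8 CPM), T cell-like cells (118.5 CPM) and B cell-like cells (183.5 CPM). The same mouse was highest for Fabp5 in conventional dendritic cell-like cells (822 CPM) and for Cd63 in Kupffer cell-like cells (937 CPM), and lowest for Lgals3 in T cell-like cells (294.4 CPM) and Lpl in B cell-like cells (15.29 CPM). HFD+F+CCl4 replicate 3 had 24 B cell-like and 35 Kupffer cell-like cells, so those values rest on few cells.

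WD+F+CCl4 replicate 1 was highest for Lgals3 in macrophage-like (4305 CPM) and monocyte-like cells (2340 CPM) and for Tyrobp in B cell-like cells (1006 CPM). Tyrobp was highest in HFD+F+CCl4 replicate 2 in macrophage-like cells (3022 CPM) and in WD+F+CCl4 replicate 2 in T cell-like cells (890.2 CPM), and Gpnmb in HFD+F+CCl4 replicate 1 in conventional dendritic cell-like cells (125.1 CPM).

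The effect of NASH differed between conventional dendritic cell- and monocyte-like cells, by the test of the difference, for Tyrobp (0.74), Cd9 (-2.52), Cd63 (-3.78) and Plin2 (-1.03), as differences of log2 fold changes. As given above, make-up and level cannot be told apart in these differences.

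Signal was also present in cells outside the named classes and in barcodes outside every comparison. A cluster led by cell cycle genes (Top2a and Mki67), with macrophage genes but no class name, held 1798 cells, 1735 of them from NASH mice, and entered no reported comparison other than that of all kept cells. Trem2 there had a median of 284.4 CPM over the NASH mice (66.5 to 636 CPM) and Gpnmb of 596.6 CPM (60.9 to 1678 CPM), both at 0 in the controls. In barcodes that were not kept, 5584 of NASH and 2523 of control mice, Trem2 had a median of 108.3 CPM in NASH against 0 to 7.23 CPM in control mice, and Gpnmb of 173.7 CPM against 3.42 to 3.61 CPM.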

How the results depend on the processing

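With 2 control mice, the calls rest on both. Leaving out each mouse in turn, the count of members called ran from 7 to 9 in all cells (HFD+F+CCl4, and WD+F+CCl4; 8 to 9 with both), from 0 to 7 in HFD+F+CCl4 phagocytes, 2 to 8 in WD+F+CCl4 phagocytes and 1 to 8 with both, lowest without a control each time, and was 0 in every run between the models. In classes it ran from 0 to 4 in macrophage-like (0 without either control), 0 to 6 in monocyte-like, 0 to 5 in conventional dendritic cell-like, 0 to 8 in T cell-like, 7 to 9 in B cell-like, 2 to 7 in plasmacytoid dendritic cell-like, 0 to 6 in neutrophil-like, 0 to 6 in endothelial cell-like, 0 to 2 in cholangiocyte-like and 0 to 1 in patrolling monocyte-like cells, from 6 to 7 in the Trem2 split and from 0 to 5 for the difference between dendritic and monocyte-like cells. The replicate number as a block, which does not pair the mice (correlations of same-numbered NASH mice from -0.61 to -0.01), moved the count from 7 to 4 in HFD+F+CCl4 phagocytes, 8 to 5 with both models, 0 to 3 in cholangiocyte-like and 3 to 0 in endothelial cell-like cells. Without the filter on low counts it moved from 0 to 6 in cholangiocyte-like, 3 to 7 in endothelial cell-like, 3 to 7 in macrophage-like and 0 to 3 in patrolling monocyte-like cells, and with DESeq2 from 3 to 6 in macrophage-like cells. Without doublets it moved from 8 to 5 in T cell-like, 6 to 3 in neutrophil-like and in plasmacytoid dendritic cell-like, 3 to 1 in endothelial cell-like and 0 to 1 in cholangiocyte-like cells. A resolution of 0.8 moved it from 7 to 4 in monocyte-like cells, and no mouse block from 7 to 0 in the Trem2 split. The cause was not tested. Changes of sign, all in values that did not pass the test, were those of Fabp5 in conventional dendritic cell-like cells (-0.08 with more than 1000 genes per cell), Cd63 there (0.86 at a resolution of 0.8, from -0.93 to 0.01 with a mouse left out, highest without control replicate 1), and Tyrobp with a mouse left out in HFD+F+CCl4 phagocytes (-0.01 to 0.73), monocyte-like cells (-0.16 to 0.44), both lowest without control replicate 2, and the Trem2 split (-0.02 to 0.03). The difference of the NASH effect between dendritic and monocyte-like cells turned without control replicate 1 for Trem2 (-0.69 to 1.75 with a mouse left out), Gpnmb (-9.57 to 1.79) and Lpl (-0.95 to 1.29), none of them past the test. The median share of NASH cells with a Trem2 UMI rose with depth, from 42.2% to 62.5% at 2000 UMIs and 79.1% without thinning in macrophage-like cells, from 17.2% to 28.3% and 51.4% in monocyte-like cells and from 3.63% to 7.60% and 8.90% in T cell-like cells, and that with a Gpnmb UMI to 62.55%, 31.6% and 11.6% without thinning. The Tyrobp level of macrophage-like cells was 2741 CPM as a mean over cells. With the 6 NASH mice alone, 5 of the 10 genes most like Trem2 were shared. Scalings moved the median of all genes by up to 0.183 in all cells and 0.256 in macrophage-like cells. Of the members' called fold changes, 777 stayed past the threshold and 49 did not under the alternatives other than a mouse left out, and 507 and 103 with a mouse left out.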
